A study of Homo sapiens with 12 samples.

Results

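Proteasome subunit genes were followed across an RNA sequencing experiment in IMR32 cells, an established line from a human neuroblastoma with amplification of MYCN, a transcription factor gene. The genes were taken by symbol, as every row named PSM followed by a letter from A to G and a number. This gave 48 of the 27514 genes in the deposited table, namely the subunits of the 20S core, the subunits of the 19S regulatory particle, the other activators and the inhibitor, and the assembly chaperones that carry PSM symbols. All samples were IMR32 cells electroporated with small interfering RNA (siRNA) and cultured for 72 h in medium with fetal calf serum. There were 4 groups of 3 samples: a control siRNA (siCtrl), the siRNA labelled siMYCN_2 (siMYCN), the siRNA labelled siHAND2_3 (siHAND2), and both targeting siRNAs together (the combined knockdown). HAND2 encodes a transcription factor of sympathetic neuron precursors. The labels name 1 siRNA per target and 1 cell line, so an effect of the target and an effect of that siRNA on other transcripts cannot be told apart here. The labels do not say whether replicates were separate cultures, and p-values then measure the spread between these samples, which may be technical.

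The proteasome degrades proteins that have been tagged with ubiquitin. Its core is a stack of rings, with outer rings of alpha subunits that gate the channel and inner rings of beta subunits that hold the proteolytic sites, and the 19S particle at its ends binds, unfolds and feeds in the tagged proteins. Dedicated chaperones build the core and the base of the 19S particle, and other activators can take the place of the 19S particle. In cells under proteasome stress the transcription factor NFE2L1 raises the subunit genes together through antioxidant response elements in their promoters.

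The deposited values are CPM (counts per 1e+06 reads of the library), and depth estimated from their smallest steps was 31.6M to 64.2M reads per sample (M, 1e+06). The listed genes held 64.3 to 65.8% of the reads of the siCtrl samples, 61.3 to 63.3% in siMYCN, 56.8 to 61.4% in siHAND2, and 58.4%, 51.4% and 44.3% in replicates 1, 2 and 3 of the combined knockdown. Calls and most changes of the members are therefore given on 2 scales: as deposited, and after rescaling each sample by its median ratio to the other samples (rescaled). A value with no scale named is as deposited. On the deposited scale the median tested gene moved on the log2(CPM + 1) scale by 0.01, -0.14 and -0.28 in siMYCN, siHAND2 and the combined knockdown, against 0.01, 0.01 and 0.04 after rescaling. The rescaling evens out the median ratio of the samples, so its medians near 0 follow from the method. They do not show which scale is right, and a shift shared by most genes would be removed. The targeted genes were lowest in the groups whose siRNA named them. MYCN averaged 1009 CPM in siCtrl and 682, 849 and 482 CPM in siMYCN, siHAND2 and the combined knockdown. HAND2 averaged 239, 326, 62.3 and 73.5 CPM in the same order. These levels are as deposited, the scale on which the median tested gene also fell in siHAND2 and the combined knockdown. MYCN kept more of its siCtrl level in siMYCN than HAND2 did in siHAND2, so the single knockdowns differed in strength as well as target. Of 5 immune cell markers none reached 1 CPM in any group, with a summed level of at most 0.212 CPM. Of 5 adrenergic neuroblastoma markers, 4 reached 1 CPM in each group, and their summed level was 342 to 366 CPM in siCtrl, 424 to 446 in siMYCN, 445 to 485 in siHAND2 and 357 to 552 in the combined knockdown. Of 5 mesenchymal markers, 2 reached 1 CPM in each group except the combined knockdown, where 1 did. Their summed level was 15.4 to 18.3 CPM in siCtrl, 14.0 to 14.7 in siMYCN, 7.95 to 8.29 in siHAND2 and 3.36 to 5.17 in the combined knockdown. The part of either marker list in the results on the proteasome genes was not tested.

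Proteasome transcripts were lower in the knockdowns, least in siMYCN and most in the combined knockdown. The 48 members summed to 3773 ± 94.6 CPM in siCtrl (SD, n = 3), and the siMYCN, siHAND2 and combined sums were 3404 ± 114, 3040 ± 143 and 2482 ± 379 CPM. After rescaling the sums were 3438 ± 91.6, 3121 ± 65.5, 3092 ± 48.6 and 2880 ± 65.4 CPM, so that the siMYCN and siHAND2 sums came to lie within their spread of each other. No knockdown sample reached the lowest siCtrl sum on either scale, and the smallest p of an exact two-sided permutation test of 3 against 3 samples is 0.1. CPM is a share of each library, and fewer cells of a type and less RNA per cell cannot be told apart in bulk samples. The largest falls were those of PSMG1, a chaperone that starts assembly of the core, and the members with the smallest changes included the catalytic subunit PSMB5 and the 19S ubiquitin receptor PSMD4. PSMF1, an inhibitor of the core, was the single member called higher in all 3 knockdowns after rescaling, as 14.8% of all tested genes were. It was called in none as deposited, where 7.05% of all tested genes were called higher in all 3.

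**Figure D1:**
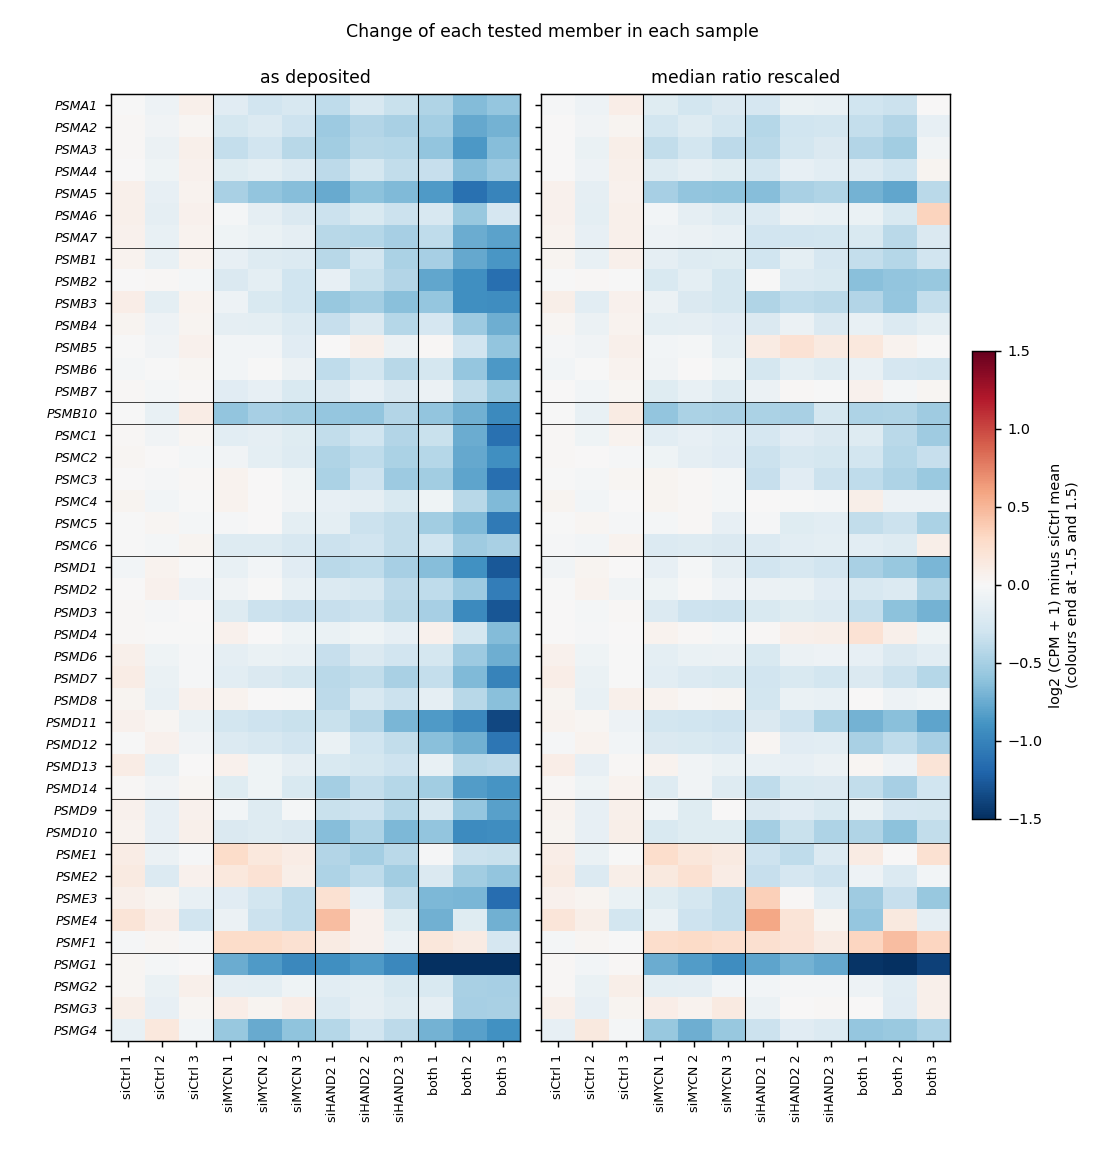
Each row is 1 of the 43 tested members, grouped by role, and each column is 1 of the 12 samples. Colour gives the log2(CPM + 1) level minus the mean of the 3 siCtrl samples, as deposited on the left and rescaled on the right. Blue (lower) runs through most rows of the knockdown columns on the left, deepest in the combined knockdown, and is paler on the right, where PSMF1 is red in all knockdown samples and PSMG1 remains the darkest row.

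Of the 48 members, 43 passed the filter of a mean of at least 1 CPM over the 12 samples and were tested with limma over 12680 genes. A gene is termed called at a Benjamini-Hochberg adjusted p under 0.05. In siMYCN, 5 of 43 members were called lower and 0 higher as deposited, against 16.3% of all tested genes called lower and 17.4% called higher, so the members' share (11.6%) was under the background. After rescaling 18 were called lower and 1 higher (22.5% and 25.4% of all genes). A block for the replicate number brought the deposited count to 8, all lower (18.6% of all genes), by adding PSMD11, PSMD3 and PSME3. With only the siMYCN and siCtrl samples in the fit 23 were called lower and 2 higher, where 26.9% and 28% of all genes were, and leaving out replicate 1 or replicate 3 of the combined knockdown gave 12 or 14 calls, where the share of all genes called in either direction also rose, from 33.7% to 43.3% or 45.4%. The rescaled count of 19 was 10 without siMYCN replicate 3 and 12 without siCtrl replicate 3 (41.4% and 41.9% of all genes in either direction, against 47.9%). The median log2 change of the members was -0.16 as deposited and -0.15 after rescaling. All 3 siMYCN samples lay below all 3 siCtrl samples for 23 members as deposited and 22 rescaled, against 29.6% and 28.9% of all tested genes.

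In siHAND2, 30 of 43 members were called lower and 0 higher as deposited, where 30.4% and 12.3% of all tested genes were. After rescaling 25 were called lower and 2 higher (24.9% and 25.9% of all genes), and these 25 were all among the 30. The deposited count was 17, 18 or 19 without siHAND2 replicate 3, siCtrl replicate 3 or siCtrl replicate 1, all lower, where 23.3%, 24.2% and 23.8% of all genes were. All siHAND2 samples lay below all siCtrl samples for 39 members as deposited and 29 rescaled (45% and 29.9% of all genes). The median log2 change was -0.36 as deposited and -0.20 rescaled. In the combined knockdown 40 were called lower and 0 higher as deposited, where 50.1% and 17.4% of all genes were. After rescaling 28 were lower and 1 higher (33% and 37.7% of all genes), and these 28 were all among the 40. All combined samples lay below all siCtrl samples for 38 members as deposited and 25 rescaled (48.3% and 32.9% of all genes). The median was -0.66 as deposited and -0.30 rescaled. The 3 comparisons share the siCtrl samples, so their counts are not independent of each other.

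**Figure D2:**
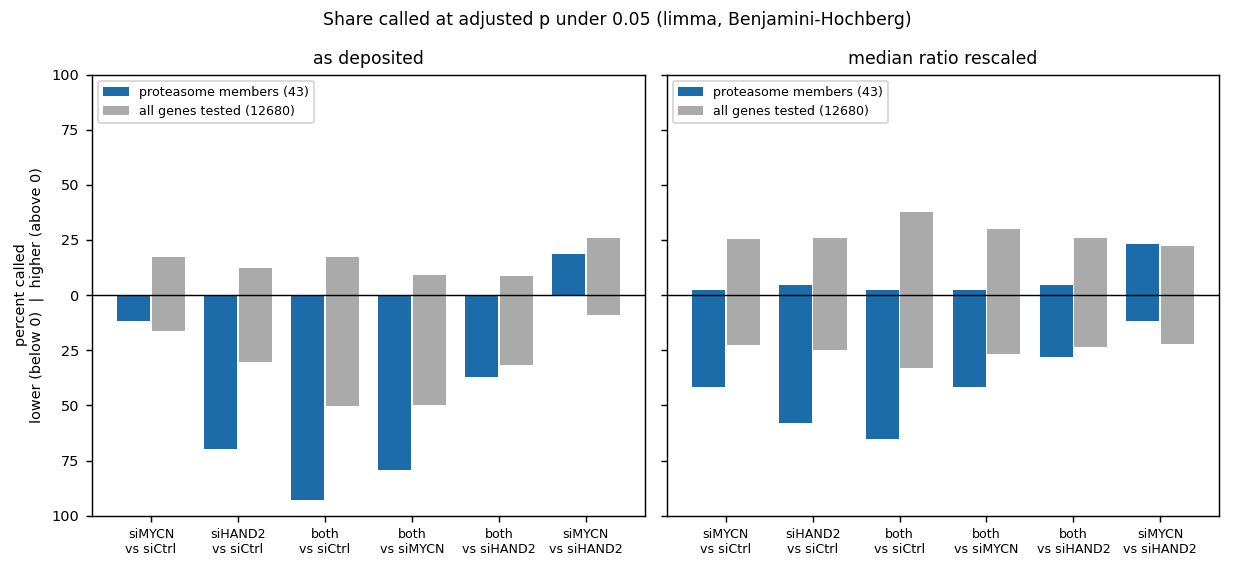
Bars give the percent of the 43 tested members (blue) and of all 12680 tested genes (grey) called lower (drawn downward) or higher (drawn upward) in each of 6 comparisons, as deposited on the left and rescaled on the right. Against siCtrl the members' downward bars exceed the grey ones on both scales in siHAND2 and the combined knockdown, whereas in siMYCN they do so after rescaling and not as deposited.

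The members called lower in all 3 knockdowns as deposited were PSMA3, PSMA5, PSMB10, PSMG1 and PSMG4, and these 5 were also among the 12 so called after rescaling. The share was 11.6% of the tested members as deposited and 27.9% rescaled, against 10.7% and 12.5% of all tested genes. Promoter sequence is shown for PSMG1, PSMG4 and PSMA5 from this set and for PSMB5, whose direction depended on the scale. The sequences are from RefSeq (a GRCh38.p14 table) and were placed in hg19 by an exact match. They are the bases before the RefSeq start site, cut where the gene span of the deposited table begins, on the strand of the gene, with motif matches in capitals.
PSMG1: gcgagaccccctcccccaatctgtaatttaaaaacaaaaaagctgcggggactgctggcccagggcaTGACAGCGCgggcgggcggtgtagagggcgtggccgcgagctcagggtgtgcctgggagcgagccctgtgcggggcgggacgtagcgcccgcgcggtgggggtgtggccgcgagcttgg
PSMG4: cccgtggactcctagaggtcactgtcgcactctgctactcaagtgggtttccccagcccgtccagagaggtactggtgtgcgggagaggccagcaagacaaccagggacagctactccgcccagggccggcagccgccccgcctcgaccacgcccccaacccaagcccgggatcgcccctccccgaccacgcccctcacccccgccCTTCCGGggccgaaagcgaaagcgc
PSMA5: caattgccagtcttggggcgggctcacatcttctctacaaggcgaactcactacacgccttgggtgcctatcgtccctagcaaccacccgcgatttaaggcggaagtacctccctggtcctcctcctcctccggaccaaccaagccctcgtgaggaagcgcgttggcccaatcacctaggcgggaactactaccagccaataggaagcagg
PSMB5: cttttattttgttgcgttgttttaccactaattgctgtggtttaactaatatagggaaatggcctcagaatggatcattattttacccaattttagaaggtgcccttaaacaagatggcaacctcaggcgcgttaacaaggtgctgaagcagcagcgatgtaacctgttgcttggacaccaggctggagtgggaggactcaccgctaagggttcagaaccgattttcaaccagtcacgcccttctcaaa
The PSMG1 stretch is chr21:40555442-40555627 on the minus strand, and its capitals mark TGACAGCGC at positions -183 to -175 from the RefSeq start, a match to TGACNNNGC, the core of the antioxidant response element. The PSMG4 stretch is chr6:3258931-3259161 on the plus strand, and its capitals mark CTTCCGG at -44 to -38, the reverse complement of the ETS site CCGGAAG. The PSMA5 stretch is chr1:109969110-109969320 and the PSMB5 stretch chr14:23504431-23504679, both on the minus strand and without a match in the letters shown. PSMB5 has a further window in the table, which is not shown.

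Over the 250 bases before each start, 51 RefSeq windows belonged to 42 members, and 35116 windows belonged to all genes of the table. Both strands were searched, and matches of different motifs may overlap. The MYC family E-box CACGTG was in 3 member windows (5.88%), those of PSMB3, PSMD9 and PSME3, and in 6.34% of all windows. The E-box form CATCTG was in 6 member windows (11.8%), those of PSMA6, PSMB10, PSMB3, PSMB5 and PSMC3, and in 12.2% of all. TGACNNNGC was in 13 member windows (25.5%), against 10.9% of all, and CCGGAAG was in 11 (21.6%), against 8.52% of all. The TGACNNNGC windows were those of PSMA4, PSMB3, PSMB9, PSMC5, PSMD12, PSMD3, PSMD5, PSMD9, PSME1, PSME2, PSME4, PSMG1 and PSMG2. No window was matched for PSMA7, PSMB1, PSMB6, PSMB7, PSMD4 and PSMG3. A match is a description of these letters and not a bound site.

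The alpha ring is the outer ring of the core and controls entry to it. Its 7 tested members, PSMA1 to PSMA7, were all called lower in siHAND2 and in the combined knockdown as deposited. In siMYCN 2 of them (PSMA3 and PSMA5) were called lower. After rescaling 4 were called lower in each single knockdown and 5 in the combined one, and none was called higher. Of all tested genes 16.3%, 30.4% and 50.1% were called lower in siMYCN, siHAND2 and the combined knockdown as deposited. After rescaling these shares were 22.5%, 24.9% and 33%. PSMA8, the variant of PSMA7 made in the testis, was listed at 0 in all 12 samples. PSMA5 fell furthest in the ring. It stood at 90.1, 78.0 and 88.4 CPM in the siCtrl samples, 60.6, 56.1 and 54.6 in siMYCN, 50.1, 55.1 and 53.6 in siHAND2, and 46.9, 38.8 and 42.6 in the combined knockdown. All siCtrl samples exceeded all knockdown samples, on the rescaled scale too. The log2 change of PSMA5 was -0.57 in siMYCN (SE 0.11, limma adjusted p = 0.00027), and those in siHAND2 and the combined knockdown were -0.68 and -0.98, and -0.56, -0.52 and -0.63 after rescaling. The combined level was called below either single knockdown as deposited. After rescaling it was not, and the 3 groups overlapped at 52.4 ± 2.21, 53.9 ± 3.69 and 50.2 ± 7.22 CPM (SD, n = 3; siMYCN, siHAND2, combined).

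PSMA6 had the smallest fall of the ring in the combined knockdown. It stood at 119, 102 and 117 CPM in siCtrl, 110.2, 102 and 96.4 in siMYCN, 89.8, 96.1 and 89.8 in siHAND2, and 95.0, 75.9 and 94.5 in the combined knockdown. The combined and siHAND2 samples lay below the siCtrl samples as deposited, and all groups overlapped after rescaling, where replicate 3 of the combined knockdown was the highest of all 12 samples at 129.6 CPM. Its log2 change in the combined knockdown was -0.35 (SE 0.12) as deposited and 0.00 rescaled, and in siHAND2 it was -0.29 and -0.13. The siHAND2 call (limma adjusted p = 0.046) was lost when any 1 of 8 samples was left out, and the combined call without siCtrl replicate 1 or replicate 2 of the combined knockdown. PSMA3, the other alpha gene called in all 3 knockdowns, stood at 67.7, 62.5 and 70.3 CPM in siCtrl, 51.9, 54.5 and 49.6 in siMYCN, 46.1, 49.8 and 49.2 in siHAND2, and 44.1, 36.3 and 42.5 in the combined knockdown. Its log2 changes were -0.36, -0.46 and -0.70 as deposited and -0.35, -0.30 and -0.34 rescaled, where replicate 3 of the combined knockdown overlapped siCtrl. The remaining alpha genes lay between PSMA5 and PSMA6 in the combined knockdown, from PSMA2 at -0.66 to PSMA4 at -0.51 as deposited. After rescaling PSMA2 was at -0.31 and called, and PSMA4 was at -0.15 and not called in any knockdown.

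The beta ring holds the proteolytic sites: PSMB5 carries the chymotrypsin-like site, PSMB6 the caspase-like site and PSMB7 the trypsin-like site, and PSMB1 to PSMB4 carry none. Of the 7 constitutive beta genes 0 were called in siMYCN as deposited and 4 were called lower after rescaling. In siHAND2, 5 were called lower as deposited, and after rescaling 4 were lower and 1 higher. In the combined knockdown all 7 were called lower as deposited and 5 after rescaling. The shares of all tested genes called lower, in the same order of knockdowns, were 16.3%, 30.4% and 50.1% as deposited. After rescaling they were 22.5%, 24.9% and 33%, and 25.9% were called higher in siHAND2. The 3 catalytic genes did not move alike. PSMB5 stood at 149.9, 145.6 and 157 CPM in siCtrl, 147, 146 and 134 in siMYCN, 151, 159 and 142 in siHAND2, and 152, 123 and 99.8 in the combined knockdown. The groups overlapped throughout, and the 3 combined samples spread over a wider range than those of any other group. Its log2 changes were -0.08, -0.00 and -0.29 (SE 0.13), the last called at a limma adjusted p of 0.048 that was lost when any 1 of 11 samples was left out. After rescaling the change of PSMB5 turned to 0.16 in siHAND2 (SE 0.06, limma adjusted p = 0.040), with all 3 siHAND2 samples above the siCtrl samples, and to 0.07 in the combined knockdown. The rescaled siHAND2 call was lost without any 1 of 7 samples.

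PSMB6 stood at 71.9, 73.6 and 75.5 CPM in siCtrl, 71.7, 73.3 and 69.2 in siMYCN, 56.2, 60.6 and 55.1 in siHAND2, and 61.3, 48.8 and 40.2 in the combined knockdown. Its siMYCN samples overlapped siCtrl and its siHAND2 and combined samples lay below, on both scales. The log2 changes of PSMB6 were -0.04, -0.36 and -0.57 as deposited (SE 0.12) and -0.04, -0.20 and -0.21 rescaled, and those in siHAND2 and the combined knockdown were called by limma on both scales. The siHAND2 call of PSMB6 as deposited (adjusted p = 0.022) was lost without siCtrl replicate 2 or 3 or siHAND2 replicate 1 or 3. PSMB7 stood at 94.8, 91.5 and 94.9 CPM in siCtrl, 83.1, 85.8 and 80.1 in siMYCN, 80.7, 85.9 and 80.5 in siHAND2, and 88.4, 72.6 and 63.4 in the combined knockdown. All knockdown samples of PSMB7 were below the siCtrl samples as deposited, and after rescaling this held for siMYCN alone. Its log2 changes were -0.17, -0.18 and -0.33 as deposited, with the combined one called, and -0.16, -0.03 and 0.02 rescaled, with the siMYCN one called unless siCtrl replicate 3 or siMYCN replicate 1 or 3 was left out.

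PSMB2, which carries no active site, had the largest fall of the beta ring in the combined knockdown. It stood at 43.03, 43.4 and 42.1 CPM in siCtrl, 36.7, 38.5 and 34.6 in siMYCN, 39.1, 33.7 and 31.3 in siHAND2, and 24.6, 22.2 and 18.99 in the combined knockdown. The combined samples were below all other samples on both scales. Its log2 change there was -0.94 (SE 0.12, limma adjusted p = 8.6e-08) as deposited and -0.59 (SE 0.06) rescaled. In the single knockdowns it was -0.22 and -0.30 as deposited and -0.21 and -0.14 rescaled. The siMYCN value was called after rescaling only, unless siMYCN replicate 3 was left out, and the siHAND2 value as deposited only, with 8 of the 12 samples each ending that call when left out. The other beta genes without an active site, PSMB1, PSMB3 and PSMB4, were at -0.71, -0.81 and -0.51 in the combined knockdown as deposited and at -0.35, -0.46 and -0.15 rescaled, all called. PSMB3 averaged 79.1, 68.6, 52.8 and 44.8 CPM in siCtrl, siMYCN, siHAND2 and the combined knockdown.

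The inducible beta subunits replace the catalytic ones in the immunoproteasome of immune and interferon-treated cells. PSMB8 and PSMB9, the counterparts of PSMB5 and PSMB6, were listed at 0 in all 12 samples. PSMB8-AS1, on the strand opposite PSMB8, was also listed at 0. They lie in the MHC region, where some other genes had many reads and some few: RPS18 averaged 1229 CPM and BRD2 164 CPM in siCtrl, while the peptide transporter genes TAP1 and TAP2 beside them reached at most 0.0313 and 0.317 CPM. PSMB11, the thymus form, reached at most 0.127 CPM, a level of a few reads. PSMB10, the counterpart of PSMB7, was measured in every sample at 4.68, 4.29 and 5.14 CPM in siCtrl, 2.77, 3.04 and 2.96 in siMYCN, 2.82, 2.77 and 3.19 in siHAND2, and 2.79, 2.46 and 1.93 in the combined knockdown. No knockdown sample reached the lowest siCtrl sample on either scale. The log2 change of PSMB10 was -0.54, -0.54 and -0.76 as deposited (SE 0.12) and -0.52, -0.41 and -0.49 rescaled, called by limma in all. As a share of the summed CPM of PSMB7 and PSMB10, which does not depend on the scale and is not corrected for length, PSMB10 made up 4.48 to 5.14% in siCtrl. The share was 3.23 to 3.57% in siMYCN, 3.12 to 3.81% in siHAND2 and 2.95 to 3.28% in the combined knockdown, with no overlap with siCtrl (exact two-sided permutation p = 0.1 for each, the smallest that 3 against 3 samples allow).

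The base of the 19S particle is a ring of 6 ATPases, PSMC1 to PSMC6, that unfold substrates and open the core. In siMYCN 0 were called as deposited and 1 was called lower after rescaling. In siHAND2 4 were called lower on either scale, and in the combined knockdown 6 were as deposited and 4 after rescaling. The shares of all tested genes called lower, in the same order of knockdowns, were 16.3%, 30.4% and 50.1% as deposited. After rescaling they were 22.5%, 24.9% and 33%. PSMC3 had the largest fall. It stood at 122.5, 121 and 124 CPM in siCtrl, 127, 123 and 117 in siMYCN, 88.05, 98.7 and 83.8 in siHAND2, and 84.8, 70.0 and 55.2 in the combined knockdown. Its siMYCN samples lay around the siCtrl samples and its siHAND2 and combined samples below them, on both scales. The log2 changes of PSMC3 were -0.00, -0.44 and -0.82 as deposited (SE 0.13) and 0.01, -0.28 and -0.46 rescaled (SE 0.06). PSMC3 was higher in siMYCN than in siHAND2 by 0.44 as deposited and 0.29 rescaled, with limma adjusted p of 0.0093 and 0.0015. PSMC4, another ATPase of the ring, stood at 85.5, 80.6 and 82.6 CPM in siCtrl, 85.8, 83.3 and 79.7 in siMYCN, 76.3, 75.3 and 70.3 in siHAND2, and 79.5, 61.9 and 52.0 in the combined knockdown. It was called lower in the combined knockdown as deposited (-0.38, SE 0.12), and after rescaling its 3 changes were 0.01, -0.00 and -0.02 (SE 0.05). Between them as deposited, PSMC5, PSMC1, PSMC2 and PSMC6 were at -0.75, -0.73, -0.70 and -0.44 in the combined knockdown, all called. After rescaling they were at -0.39, -0.38, -0.35 and -0.09, and PSMC6 was not called there although it was called in both single knockdowns.

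The remaining 11 subunits of the 19S particle include the scaffolds PSMD1 and PSMD2, the ubiquitin receptor PSMD4 and the deubiquitinase PSMD14. In siMYCN 0 were called as deposited and 4 were called lower after rescaling. In siHAND2 7 were lower as deposited and 6 rescaled, and in the combined knockdown 10 and 8. None was called higher. The shares of all tested genes called lower, in the same order of knockdowns, were 16.3%, 30.4% and 50.1% as deposited. After rescaling they were 22.5%, 24.9% and 33%. PSMD11, a lid subunit, had the largest fall. It stood at 76.4, 75.0 and 68.5 CPM in siCtrl, 60.5, 58.8 and 57.9 in siMYCN, 57.7, 53.6 and 45.0 in siHAND2, and 40.1, 37.1 and 27.9 in the combined knockdown. The siCtrl samples were above all knockdown samples on both scales, and the combined samples were below those of either single knockdown. Its log2 changes were -0.31, -0.49 and -1.06 as deposited (SE 0.13) and -0.30, -0.33 and -0.71 rescaled (SE 0.07). The siMYCN value of PSMD11 was not called as deposited (limma adjusted p = 0.065) and was called with the replicate block (0.021) and after rescaling (0.0025). Leaving out replicate 1 or 3 of the combined knockdown also gave the call. PSMD4 stood at 139, 137 and 137 CPM in siCtrl, 143, 138 and 132 in siMYCN, 128, 132 and 126 in siHAND2, and 144, 115 and 87.2 in the combined knockdown. It was called in none of the 3 knockdowns on either scale, with log2 changes of 0.00, -0.10 and -0.28 as deposited (SE 0.13) and 0.01, 0.06 and 0.07 rescaled (SE 0.06). Leaving out replicate 1 of the combined knockdown gave a call there as deposited (limma adjusted p = 0.00068, lower), and leaving out replicate 3 gave one after rescaling (0.028, higher). The scaffold PSMD1 averaged 156.9, 145.8, 116 and 82.7 CPM in siCtrl, siMYCN, siHAND2 and the combined knockdown, with log2 changes of -0.11, -0.43 and -0.94 as deposited and -0.10, -0.27 and -0.58 rescaled. PSMD2, the other scaffold, changed by -0.06, -0.28 and -0.66 as deposited and -0.05, -0.12 and -0.30 rescaled, and was called in the combined knockdown on both scales and in no single knockdown. PSMD14 changed by -0.15, -0.43 and -0.75 as deposited and -0.15, -0.28 and -0.39 rescaled, with siHAND2 and the combined knockdown called on both scales. PSMD13, a lid subunit, was at -0.31 and called in the combined knockdown as deposited and at 0.05, not called, after rescaling, which was another change of direction with the scale. Combined changes of PSMD3, PSMD6, PSMD7, PSMD8 and PSMD12 ran from -0.91 (PSMD3) to -0.39 (PSMD8) as deposited, all called, and from -0.56 (PSMD3) to -0.04 (PSMD8, not called) rescaled.

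The chaperones PSMD9 and PSMD10 help to assemble the ATPase ring. PSMD10 stood at 33.3, 29.6 and 33.9 CPM in siCtrl, 27.6, 28.1 and 27.6 in siMYCN, 20.4, 23.1 and 19.8 in siHAND2, and 21.0, 16.3 and 16.4 in the combined knockdown. All knockdown samples were below siCtrl, and the siHAND2 samples were below the siMYCN samples, on both scales. The log2 changes of PSMD10 were -0.21, -0.59 and -0.82 as deposited (SE 0.11) and -0.20, -0.44 and -0.48 rescaled (SE 0.08), called by limma except in siMYCN as deposited. The rescaled siMYCN call of PSMD10 (adjusted p = 0.048) was lost without any 1 of 6 samples. PSMD9 stood at 25.5, 22.3 and 25.5 CPM in siCtrl, 23.8, 21.3 and 24.0 in siMYCN, 19.2, 19.5 and 17.8 in siHAND2, and 20.5, 16.0 and 13.4 in the combined knockdown. Its changes were -0.08, -0.36 and -0.55 as deposited (SE 0.12) and -0.07, -0.20 and -0.20 rescaled, with siHAND2 and the combined knockdown called on both scales. As deposited the siHAND2 call of PSMD9 was lost without siCtrl replicate 1 or 3 or siHAND2 replicate 3, and the rescaled calls were lost without any 1 of 5 samples in siHAND2 and of 4 in the combined knockdown. PSMD5, also a chaperone of the base, was at 0.0175 to 0.253 CPM and was not tested, while its neighbours FBXW2 and PHF19 averaged 68.5 and 32.3 CPM in siCtrl. PSMD5-AS1, listed on the other strand between PSMD5 and PHF19, was low as well, at 0.303 to 0.800 CPM.

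The core assembly chaperones held the largest change among all members. PSMG1 and PSMG2 form a pair that assembles the alpha ring, as do PSMG3 and PSMG4. PSMG1 stood at 27.2, 26.1 and 26.9 CPM in siCtrl, 15.6, 14.4 and 13.2 in siMYCN, 13.7, 14.4 and 13.1 in siHAND2, and 8.10, 6.63 and 6.29 in the combined knockdown. The single knockdowns overlapped each other at 53.8% and 51.5% of the siCtrl mean, and the combined samples lay below them all at 26.2%. After rescaling these shares were 54.1%, 57.5% and 33.5%. The log2 changes of PSMG1 were -0.85, -0.91 and -1.80 (SE 0.11, limma adjusted p = 1.7e-06, 3.2e-07 and 4.1e-13), and -0.84, -0.76 and -1.47 rescaled (SE 0.07). Its interaction, the combined change minus both single changes, was -0.03 (SE 0.16) as deposited and 0.13 (SE 0.10) rescaled, and was not called on either scale. PSMG4 stood at 4.90, 6.12 and 5.19 CPM in siCtrl, 3.30, 2.79 and 3.20 in siMYCN, 3.73, 4.24 and 3.88 in siHAND2, and 2.91, 2.62 and 2.39 in the combined knockdown. All knockdown samples of PSMG4 were below siCtrl, and the siMYCN samples were below the siHAND2 samples. Its log2 changes were -0.64, -0.37 and -0.81 as deposited (SE 0.12) and -0.62, -0.23 and -0.53 rescaled (SE 0.09), all called. The siHAND2 call of PSMG4 was lost as deposited without siCtrl replicate 2 (limma adjusted p = 0.082), and after rescaling, where its adjusted p was 0.049, without any 1 of 9 samples.

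The partners changed less. PSMG3 stood at 28.5, 24.5 and 27.3 CPM in siCtrl, 28.8, 27.5 and 28.8 in siMYCN, 23.0, 24.3 and 23.3 in siHAND2, and 24.2, 18.6 and 18.8 in the combined knockdown. It was called in the combined knockdown as deposited alone (-0.37, SE 0.11), and its rescaled changes were 0.09, -0.02 and -0.03 (SE 0.07). PSMG2 was likewise called lower in the combined knockdown as deposited and in no knockdown after rescaling, and it overlaps CEP76 on the other strand over 40823 bases. PSMG3-AS1, an antisense gene listed beside PSMG3 and named here after its values were seen, averaged 3.70 ± 0.187 CPM in siCtrl, against 8.04 ± 0.211, 6.79 ± 1.44 and 8.36 ± 1.65 CPM in siMYCN, siHAND2 and the combined knockdown (SD, n = 3). Its log2 changes of 0.95, 0.71 and 0.98 as deposited, and 0.94, 0.84 and 1.29 rescaled, were all called by limma.

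**Figure D3:**
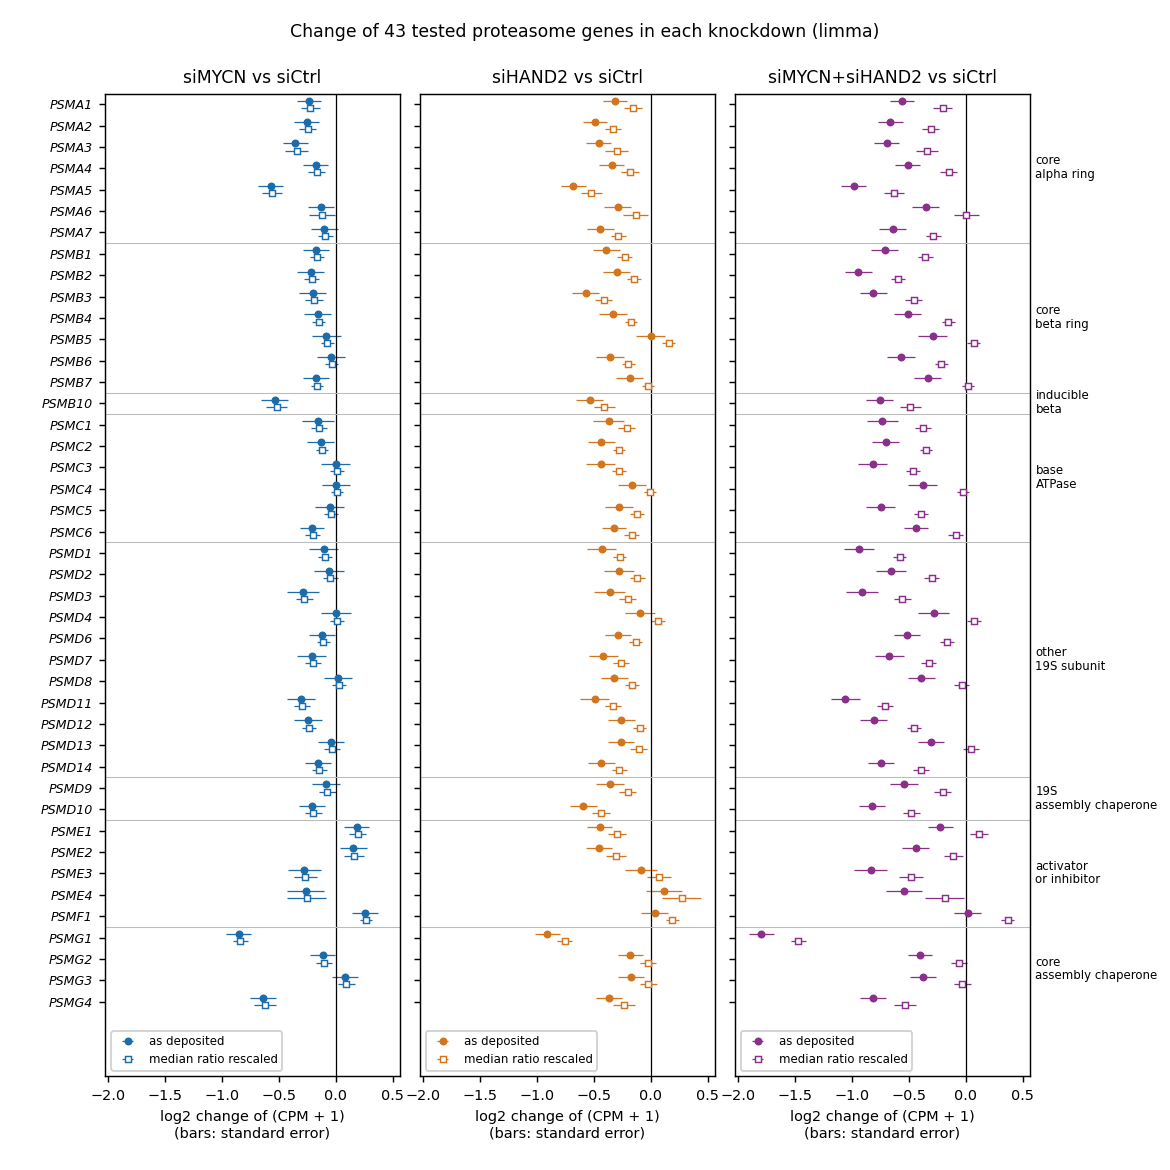
Points give the log2 change of (CPM + 1) of each tested member against siCtrl with its standard error from limma, 1 panel per knockdown, filled for deposited values and open for rescaled ones. Members are grouped by role. PSMG1 lies furthest left in every panel, and in the combined panel the open points right of 0 include PSMB5, PSMD4, PSME1 and PSMF1.

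The activators other than the 19S particle are PSME1 to PSME4. PSME1 and PSME2, which interferon induces, together form the PA28 cap of the core. PSME1 stood at 20.2, 17.4 and 18.4 CPM in siCtrl, 22.8, 20.9 and 20.2 in siMYCN, 13.5, 12.8 and 13.8 in siHAND2, and 18.4, 14.7 and 14.6 in the combined knockdown. PSME2 stood at 16.2, 12.6 and 15.5 CPM in siCtrl, 16.5, 17.2 and 15.7 in siMYCN, 10.4, 11.04 and 9.98 in siHAND2, and 12.5, 9.98 and 9.43 in the combined knockdown. The siHAND2 samples of both genes were below all siCtrl and all siMYCN samples, on both scales. In siHAND2 the log2 change was -0.45 for PSME1 (SE 0.11, limma adjusted p = 0.0021) and -0.45 for PSME2 (SE 0.12, adjusted p = 0.0031), and -0.30 and -0.31 rescaled, all called. In siMYCN it was 0.18 and 0.15, and 0.19 and 0.16 rescaled, none called. The replicate block brought PSME1 in siMYCN to a limma adjusted p of 0.031 after rescaling. The difference between siMYCN and siHAND2 was 0.63 for PSME1 and 0.61 for PSME2 as deposited, and 0.49 and 0.47 rescaled, the largest of the members on the deposited scale and called on both (limma adjusted p = 8.2e-05 and 0.00025 as deposited). In the combined knockdown the direction for PSME1 depended on the scale (-0.22 as deposited, 0.12 rescaled, neither called), and PSME2 was at -0.44, called, as deposited and at -0.11, not called, rescaled. Leaving out replicate 1 of the combined knockdown gave a call for PSME1 as deposited (limma adjusted p = 0.0035).

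PSME3, which forms the nuclear PA28 gamma cap, stood at 124.7, 122 and 109 CPM in siCtrl, 105.2, 97.7 and 90.7 in siMYCN, 139, 109 and 91.2 in siHAND2, and 73.8, 73.3 and 53.0 in the combined knockdown. The combined samples were below all siCtrl samples, and the siHAND2 samples spanned the siCtrl range. Its log2 change in the combined knockdown was -0.84 (SE 0.14, limma adjusted p = 1.2e-05) as deposited and -0.48 (SE 0.11) rescaled. In siMYCN it was -0.28 as deposited, with a limma adjusted p of 0.14 that became 0.042 with the replicate block and 0.042 without replicate 3 of the combined knockdown. After rescaling PSME3 was called lower in siMYCN, with samples at 84.3 to 95.2 CPM, below the siCtrl samples at 100.6 to 112.9 CPM. In siHAND2 its log2 change was -0.09 as deposited and 0.07 rescaled, neither called. PSME4, the single-chain activator PA200, stood at 126, 118 and 90.1 CPM in siCtrl, 103, 87.9 and 84.4 in siMYCN, 152, 115 and 97.1 in siHAND2, and 66.3, 96.6 and 66.6 in the combined knockdown. It had the widest replicate spread of the tested members in siCtrl, siMYCN and siHAND2 (coefficient of variation 16.8%, 10.9% and 23.1%, where the median member had 5.14%, 4.22% and 4.85%). Its combined value of -0.54 (SE 0.16) was called as deposited although its samples overlapped siCtrl, and was -0.19 (SE 0.17) and not called after rescaling.

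PSMF1, also known as PI31, binds the core and can inhibit it. It stood at 39.6, 41.1 and 39.6 CPM in siCtrl, 48.6, 48.9 and 47.0 in siMYCN, 43.7, 42.0 and 37.7 in siHAND2, and 45.4, 43.8 and 33.6 in the combined knockdown. As deposited all siMYCN samples were above siCtrl and the other groups overlapped it. After rescaling the levels were 35.9, 37.3 and 36.4 in siCtrl, 43.97, 44.8 and 43.6 in siMYCN, 43.4, 42.1 and 39.9 in siHAND2, and 45.8, 50.6 and 46.0 in the combined knockdown, so that every knockdown sample was above siCtrl. The log2 changes of PSMF1 were 0.26, 0.03 and 0.02 as deposited (SE 0.12, none called) and 0.27, 0.19 and 0.37 rescaled (SE 0.05, limma adjusted p = 0.0011, 0.010 and 2.9e-05). The rescaled calls held whichever 1 sample was left out of the fit, with divisors from all 12 samples. Leaving out replicate 1 or 3 of the combined knockdown gave the siMYCN call as deposited, with adjusted p of 0.032 and 0.0085.

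**Figure D4:**
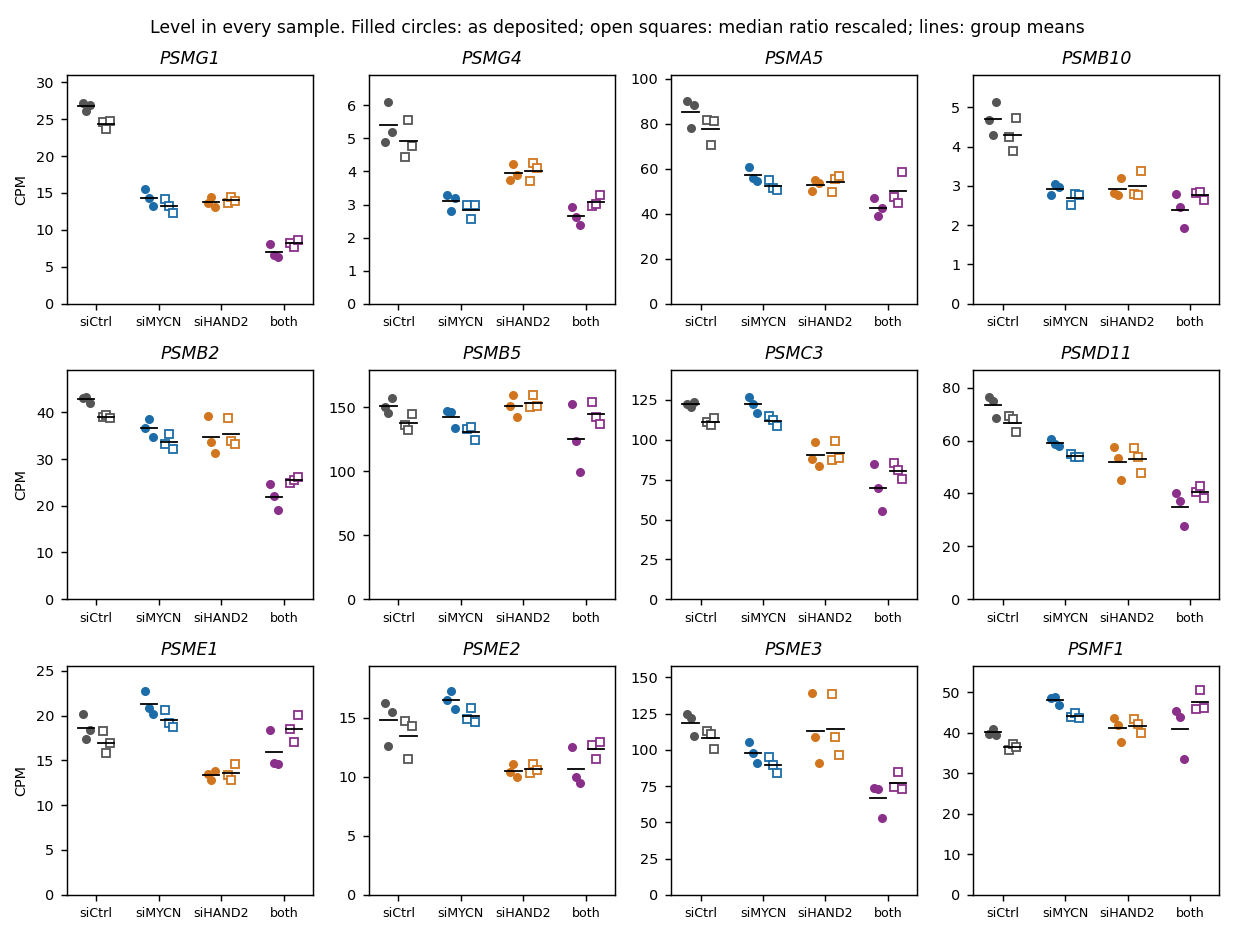
Each panel plots 1 member in CPM from 0, with 3 samples per group, filled circles as deposited, open squares rescaled and lines for the group means (both is the combined knockdown). In PSMG1 the single knockdowns overlap and the combined samples lie between 6.29 and 8.63 CPM over both scales, PSME1 and PSME2 are lowest in siHAND2 after rescaling, and PSMF1 is the panel where the rescaled knockdown samples all stand above siCtrl.

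The knockdowns were also compared with each other. In the combined knockdown 34 of 43 members were lower and 0 higher than in siMYCN as deposited (50% and 8.92% of all genes), and 18 lower and 1 higher after rescaling (26.6% and 30%). The higher one was PSMB7. Against siHAND2 16 were lower and 0 higher as deposited (31.5% and 8.75% of all genes), and 12 lower and 2 higher after rescaling (23.6% and 26.1%). The higher ones were PSME1 and PSMF1. The deposited count against siHAND2 was 37, all lower, without replicate 1 of the combined knockdown, where the share of all genes called lower also rose to 47.4%. It was 10, all lower, without siHAND2 replicate 2 (24.3% of all genes) and with only the 2 groups in the fit (22.3%). Between siMYCN and siHAND2, 8 members were higher in siMYCN and 0 lower as deposited (26.1% and 8.98% of all genes), and 10 were higher and 5 lower after rescaling (22.4% and 22.2%). The replicate block gave 12 higher and 1 lower as deposited (29.8% and 10.9% of all genes), adding PSMB6, PSMD1, PSMD14 and PSMD9 as higher and PSME4 as lower. With only those 2 groups in the fit 26 were higher and 2 lower (39.8% and 13.3%). The deposited count was 17 or 21 without replicate 1 or 3 of the combined knockdown, where 46.1% and 48% of all genes were called in either direction, against 35% with all samples. It was 4 without siMYCN replicate 1 or siHAND2 replicate 3, and 5 without siMYCN replicate 2 or 3 or siHAND2 replicate 1 (25.7 to 29.6% of all genes). The rescaled count of 15 was 6, 8, 8, 9 and 9 without siHAND2 replicate 1, siHAND2 replicate 3, siMYCN replicate 2, siMYCN replicate 1 and siMYCN replicate 3 (36.3 to 39.7% of all genes, against 44.5%). Rescaled members higher in siMYCN included PSMC3, PSMD10, PSME1 and PSME2, and those lower were PSMB5, PSMB7, PSME3, PSME4 and PSMG4.

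The interaction was called for 0 of 43 members on either scale with limma, where 4.01% of all genes were called as deposited and 6.14% rescaled. At an unadjusted p under 0.05 there were 5 members as deposited (PSMB2, PSMC3, PSMC5, PSMD1 and PSME3, each at a combined change below the sum of the single changes) and 12 rescaled. These are 11.6% and 27.9% of the members, against 21.4% and 24.2% of all genes at that threshold. The replicate block gave 1 call as deposited (PSME3, with 10.1% of all genes called) and 2 rescaled (PSMA5 and PSMB10, with 9.95%). Leaving out replicate 1 of the combined knockdown gave 13 calls as deposited, all negative, where 33.6% of all genes were called negative, and leaving out any 1 sample gave between 0 and 2 after rescaling (3.27 to 11.3% of all genes). The summed CPM of the 17 tested 19S subunits over that of the 14 core subunits, a ratio that does not depend on the scale, was 1.01 to 1.11 in siCtrl, 1.11 to 1.12 in siMYCN, 1.05 to 1.11 in siHAND2 and 0.885 to 1.06 in the combined knockdown. The ratio of 0.885 belonged to replicate 3 of the combined knockdown, the sample with 44.3% of its reads in listed genes. Replicates 1 and 2 of that group were at 1.04 and 1.06. All its samples lay below all siMYCN samples, and every other pair of groups overlapped.

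The genes around the proteasome, taken from lists drawn up with earlier results of these data known, are given beside the shares of all tested genes. In siMYCN, siHAND2 and the combined knockdown those shares were 16.3%, 30.4% and 50.1% called lower and 17.4%, 12.3% and 17.4% called higher as deposited. After rescaling they were 22.5%, 24.9% and 33% lower and 25.4%, 25.9% and 37.7% higher. Among 12 proteasome-bound or assembly genes with other symbols, 3, 5 and 10 were called lower in siMYCN, siHAND2 and the combined knockdown as deposited, and none higher. These are 25%, 41.7% and 83.3% of the list, with median changes of -0.21, -0.26 and -0.69 beside 0.01, -0.14 and -0.28 over all genes. After rescaling 6, 4 and 6 were lower and 0, 2 and 2 higher. The largest combined falls were those of SEM1, a small 19S subunit (-1.14 as deposited, -0.79 rescaled), UCHL5, a deubiquitinase of the 19S particle (-1.02 and -0.67), and KIAA0368, the proteasome adaptor ECPAS (-0.88 and -0.53). All 6 of these values were called by limma. The genes that rose after rescaling in siHAND2 and the combined knockdown were AKIRIN2 and ZFAND5, and neither was called as deposited.

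Among 12 genes that control proteasome gene expression, 1, 2 and 6 were called lower and 0, 1 and 1 higher as deposited in siMYCN, siHAND2 and the combined knockdown, and 3, 2 and 4 lower and 2, 5 and 5 higher after rescaling. The largest combined falls were those of NGLY1, DDI2 and KEAP1, at -0.70, -0.65 and -0.65 as deposited and -0.38, -0.36 and -0.30 rescaled. NGLY1 and DDI2 process NFE2L1 into its active form, and KEAP1 targets NFE2L2 for degradation. MAFF, a small MAF partner of both, rose by 0.74 as deposited and 0.98 rescaled. NFE2L1 and NFE2L2 are named after their values were seen. NFE2L1 changed by 0.22, -0.29 and -0.53 in siMYCN, siHAND2 and the combined knockdown as deposited, the last called, and by 0.23, called, -0.13 and -0.17 after rescaling. NFE2L2, its relative, changed by 0.15, -0.66 and -0.60 as deposited and 0.16, -0.50 and -0.25 rescaled, with siHAND2 and the combined knockdown called on both scales.

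Of 13 genes of ubiquitin supply and delivery, 1, 2 and 8 were called lower and 1, 0 and 0 higher as deposited, and 2, 2 and 3 lower and 1, 2 and 2 higher rescaled. Those called lower in the combined knockdown included UFD1, a partner of the segregase VCP, at -0.77 as deposited and -0.42 rescaled, and RAD23B, which shuttles tagged proteins to the proteasome, at -0.57 and -0.21. Of 9 interferon and peptide loading genes 7 were tested, and 1, 3 and 5 were called lower and 3, 0 and 1 higher as deposited. After rescaling 1, 3 and 3 were lower and 3, 0 and 2 higher. In the combined knockdown NLRC5, the activator of MHC class I genes, fell by 0.78 as deposited and 0.57 rescaled, and ERAP1, which trims peptides, fell by 0.69 and 0.39. IRF9 rose by 0.42 and 0.66 there.

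The cytosolic and mitochondrial chaperonins, which fold other proteins, were taken as another complex for comparison. Of 10 genes, 9 were called lower in siMYCN as deposited and 10 rescaled, 5 in siHAND2 on either scale, and 10 in the combined knockdown on either scale. The list median was -0.43, -0.32 and -0.99 as deposited and -0.42, -0.16 and -0.63 rescaled, beside -0.16, -0.36 and -0.66, and -0.15, -0.20 and -0.30, for the proteasome members. HSPD1 changed by -0.92, -0.57 and -1.77 as deposited and HSPE1, its partner, by -1.06, -0.75 and -1.56. TCP1, a subunit of the cytosolic ring, changed by -0.40, -0.39 and -1.04. The order of the single knockdowns thus differed between the lists, with the chaperonin median lower in siMYCN and the proteasome median lower in siHAND2 on both scales, and that difference between lists was not tested. After rescaling the proteasome medians of single samples overlapped, at -0.18 to -0.13 in siMYCN and -0.25 to -0.16 in siHAND2.

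Levels of the 14 tested core subunits, which the particle contains in equal copies, were compared per kilobase of gene length in siCtrl. With the union of annotated exons they ranged from 9.46 CPM per kilobase for PSMB2 to 97.4 for PSMB5, a 10.3-fold range. With the longest transcript the range was 16.7-fold with PSMA7 highest, and with the MANE Select transcript, chosen after seeing the data, it was 23.4-fold with PSMB1 highest. PSMB2 was lowest under each of the 3 lengths, and PSMA5 was among the 3 lowest. For these genes the longest and the MANE Select transcript have the same length (4426 and 3815 bases), so those lengths are not separate checks. A long annotated transcript lowers the level per kilobase, and which transcripts the cells made was not tested. PSMA7, PSMB1, PSMB3, PSMB4, PSMB5 and PSMB7 ranked between 1 and 7 of 14 under each length, and the order within them changed with the length used.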

How the data were processed

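RNA sequencing of 12 IMR32 samples was deposited as 1 table of CPM per gene and sample. Per the submitters' processing notes STAR 2.5.1 and Partek were used, with the hg19 (GRCh37) genome. The counting tool, its use of strand and the annotation are not given in the sources used here. The deposited CPM columns carry an added constant of 0.0001, and 6389 genes hold nothing else in any of the samples. Of the listed symbols found in GENCODE release 44 for GRCh37, 99.0% of deposited spans overlapped the annotated gene on its strand, as did all 48 members. Low CPM values were divided by the smallest step, taken as 1 read, and 88.7 to 90.2% of values under 20 reads came out whole within 0.05 reads, so the values were not treated as counts and no count test was run. A level of 3 reads is 0.0468 to 0.0949 CPM, and covers counting error only.

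Samples were grouped by their titles. The analysis scale was log2(CPM + 1), over 12680 genes whose mean reached 1 CPM. This scale understates the change of low genes. A linear model of the 4 groups was fitted over all of them with limma 3.58.1 (lmFit, eBayes with trend; R 4.3.3). It had 8 residual degrees of freedom and 7 contrasts, all two-sided, with Benjamini-Hochberg adjustment. Tables were handled in Python 3.11.15 with pandas 2.3.3. For rescaling, each gene of mean 5 CPM or more was divided by its geometric mean over samples, and the median of these ratios in a sample became that sample's divisor. The divisors were computed from all 12 samples, also for the fits with 1 sample left out. In data simulated for siMYCN against siCtrl over 12680 genes, 46% of changes of 0.5 and 97% of changes of 1 (log2) were recovered, and 4.67% of calls were false. The simulation changed 100 genes per size, with independent noise for each gene and no shift shared within a sample. Far more genes were called in the data, so these figures do not give the power or false share of the real comparison.

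The members and lists were chosen with earlier results of these data known. Given in every sample are, per role, the members with the most negative and most positive combined change, the catalytic subunits and their inducible counterparts, the activators, and members with a called interaction or opposite calls. PSMG4, PSMA3, and the members and other genes beyond this rule were chosen after their values were seen. From each list up to 3 called genes per direction are named, and some genes are not reported here. Titles share the numbers 1 to 3. The deposited columns are numbered in runs by replicate across all groups, and the labels do not say what a run stands for. The main fit held no replicate block. Same-numbered samples deviated together in every pair for siCtrl with siMYCN (correlation 0.147 to 0.440) and for siMYCN with siHAND2 (0.137 to 0.330), and not in every pair of the other comparisons. Members sharing bases with another listed gene on the other strand include PSMA3, PSMB7, PSMC2, PSMC5, PSMD1, PSMD6, PSMG2 and, over 4 bases, PSME1, and reads there cannot be told apart if strand was not used. PSMB4 (2373 bases) and PSMD4 (12780 bases) lie wholly within the listed spans of SRGAP2D on the same strand and FAM72C on the other. Those genes averaged 7.24 and 16.1 CPM. Strand would not separate reads shared with SRGAP2D, and how such reads were assigned was not tested.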

Additional observations from a re-analysis of the deposited data

How the results depend on the processing

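The count of members called in siMYCN against siCtrl, 5 as deposited, was 8 with no filter, 3 at a mean of 5 CPM, 25 with only the compared groups, 19 after median ratio rescaling, 13 after rescaling to the listed genes, 8 with the replicate block and 21 with the replicate block and rescaling together. In siHAND2 it was 30, against 18 with no filter and 16 at an adjusted p under 0.01. Between the combined knockdown and siMYCN it was 34, against 19, 22 and 20 under median ratio rescaling, rescaling to the listed genes, and the replicate block with rescaling. Between the combined knockdown and siHAND2 it was 16, against 10 with no filter, with only the compared groups, and at an adjusted p under 0.01. Between siMYCN and siHAND2 it was 8, against 4 with no filter, 28 with only the compared groups, 15 and 16 under the 2 rescalings, 13 with the replicate block, 15 with the replicate block and rescaling, and 3 at an adjusted p under 0.01. The interaction, with 0 calls, gave 1 with the replicate block and 2 with the block and rescaling. Same-numbered samples did not always deviate together for siHAND2 or the combined knockdown with siCtrl, or for the combined knockdown with either single one. In these comparisons the block gave 34, 41, 37 and 18 calls as deposited, against 30, 40, 34 and 16 without it. Across the groups 8 of 12 samples correlated best with their own number. A weak correlation does not show that same-numbered samples were handled apart. For siMYCN against siCtrl after rescaling, the block added PSMB3 (limma adjusted p = 0.035) and PSME1 (0.031). The cause of these shifts was not tested. A pseudocount of 0.1 and a fit without trend left each count within 1.5 times its value. Where the share of all tested genes under a setting is given above, it moved as well. Where it is not given, a moved count cannot be read as particular to the members. The same holds for the counts with 1 sample left out.

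Leaving out 1 sample gave 4 to 14 calls as deposited and 10 to 23 rescaled in siMYCN, 17 to 36 and 19 to 29 in siHAND2, and 37 to 42 and 25 to 31 in the combined knockdown. It gave 30 to 41 and 15 to 20 for the combined knockdown against siMYCN, 10 to 37 and 10 to 15 against siHAND2, 4 to 21 and 6 to 15 for siMYCN against siHAND2, and 0 to 13 and 0 to 2 for the interaction. The median change of all tested genes in the combined knockdown went from -0.28 as deposited to 0.04 with median ratio rescaling, a move that follows from the method. The direction there turned for 6 of 43 members. They were PSMA6 (0.0040), PSMB5 (0.069), PSMB7 (0.021) and PSMD13 (0.046), called as deposited, and PSMD4 (0.074) and PSME1 (0.12), called on neither scale. The block did not alter these values, and all but PSMA6 also turned with rescaling to the listed genes (PSMB5 at 0.059, PSMB7 at 0.012). In siHAND2 PSMB5 turned to 0.16 and was called, and PSMD4 (0.062) and PSME3 (0.071) turned without a call, as did PSMC3 in siMYCN (0.0088). Between knockdowns 14, 12 and 12 members turned (combined against siMYCN, combined against siHAND2, siMYCN against siHAND2). With 1 sample left out, over both scales, the combined change ran from -0.42 to 0.12 for PSMA6, -0.44 to 0.11 for PSMB5, -0.46 to 0.044 for PSMB7, -0.54 to 0.0048 for PSMC4, -0.46 to 0.15 for PSMD4, -0.72 to 0.0098 for PSME4 and -0.49 to 0.043 for PSMG3, and the siHAND2 change of PSMB5 from -0.042 to 0.19.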
